A study of Mus musculus with 6 samples.

Results

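The 10 genes described here have no classic role in myelin and had far fewer transcripts in every cuprizone library than in any control library. They are Ppp1r14a, Synm, Jakmip3, Ccp110, Sgk2, Dixdc1, Nipal4, Nmral1, Xrcc3 and Ypel2, out of 39017 genes in the count table, of which 16569 had enough counts to be tested. They were picked by name for steep and repeatable falls in these same libraries, so their falls are given as a description and no test of them is offered. All 10 passed the filter on low counts.

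RNA bound to HA-tagged ribosomes was sequenced from corpus callosum, the white matter tract between the hemispheres, in 2 groups of C57BL/6 mice. The cuprizone group (replicates 30, 31 and 32) was fed a diet with 0.2% bis-(cyclohexanone)-oxaldihydrazone, a copper chelator, and the control group (replicates 24, 26 and 27) is labelled vehicle and control. All mice of both groups carried RiboTag, which lets Cre add an HA tag to the ribosomal protein RPL22, and Olig1-Cre, which is active where the Olig1 promoter has been, so that tagged ribosomes mark cells with a history of Olig1 expression and not 1 stage of the lineage. The labels describe young females of 8 to 10 weeks, cuprizone for 6 or 9 weeks and then 3 weeks of recovery, without saying which of these times the cuprizone libraries come from.

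Oligodendrocytes wrap axons in myelin, and a mature cell keeps up a large membrane system along with the cytoskeleton, ion transport and signalling that serve it. Cuprizone kills mature oligodendrocytes and strips myelin from the corpus callosum, while progenitors survive and can replace the lost cells. The 10 genes serve varied parts of a cell, such as contractile signalling and filaments (Ppp1r14a, Synm) and Janus kinase and microtubule binding (Jakmip3). Others serve the centriole (Ccp110), kinase and Wnt signalling (Sgk2, Dixdc1), magnesium and NADPH (Nipal4, Nmral1) and DNA repair (Xrcc3). Ypel2 encodes a small zinc-binding protein of a little-studied family.

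The labelled cell type was checked against its markers. All 12 markers of mature oligodendrocytes were present in every library and fell, to a summed 8782 to 16747 CPM (counts of a gene relative to the scaled total of its library) in cuprizone, against 65895 to 87145 CPM in control. Summed progenitor markers stood at 539 to 982 CPM in cuprizone and 751 to 1037 CPM in control, and 0 of the 6 passed the test with edgeR, DESeq2 or limma-voom, or had an unadjusted p under 0.05. Markers of astrocytes (12862 to 25232 CPM in cuprizone, 18240 to 20817 CPM in control), neurons (1713 to 3270 CPM and 1442 to 2337 CPM) and microglia (1160 to 2517 CPM and 809 to 1499 CPM) were also present. Of the 8 microglia markers 0 passed with edgeR or limma-voom, while 2 were higher with DESeq2 and 2 at an unadjusted p under 0.05. DESeq2 put 5.21% of all genes higher and 8.46% lower. The share of all genes at an unadjusted p under 0.05 is not given, so counts at that cut, here and below, are a description only. Cd68 and Ptprc had cuprizone libraries all above the control libraries, with log2 fold changes of 1.52 (adjusted p = 0.111 with edgeR) and 1.27 (adjusted p = 0.13). The groups overlapped for Aif1, Cx3cr1, Csf1r and C1qa, at 0.66, 0.63, 0.53 and 0.91 on the log2 scale. They also overlapped for P2ry12 and Tmem119, which went the other way, at -0.28 and -0.20. None of these lists holds a marker at 0 in any library. Total counts ran from 19455245 to 22381307 in cuprizone libraries and from 18549360 to 18771737 in control libraries. Cuprizone replicate 32 stood apart from replicates 30 and 31 (chi-square per degree of freedom 85.1 and 101; the pair of them differed by 26.6). In ribosome-bound RNA pulled down from a tissue, fewer cells of a type, less RNA per cell, less tagging and lower ribosome loading cannot be told apart.

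The promoters are shown to give the sequence at the starts of the genes with the steepest falls. RefSeq windows of 300 bases around the transcription start, in build GRCm38.p6, were found for 8 of the 10, with 9 windows in all because Dixdc1 has a pair; Sgk2 and Nmral1 were not matched. The window of Ppp1r14a, the gene with the steepest fall of the 10, lies at chr7:29289070-29289369 on the plus strand, and that of Nipal4, the next steepest, at chr11:46166310-46166609 on the minus strand. Capitals mark the letters of the MYRF motif, CTGGCAC or CTGGTAC on either strand (MYRF is a transcription factor of myelinating oligodendrocytes).
Ppp1r14a: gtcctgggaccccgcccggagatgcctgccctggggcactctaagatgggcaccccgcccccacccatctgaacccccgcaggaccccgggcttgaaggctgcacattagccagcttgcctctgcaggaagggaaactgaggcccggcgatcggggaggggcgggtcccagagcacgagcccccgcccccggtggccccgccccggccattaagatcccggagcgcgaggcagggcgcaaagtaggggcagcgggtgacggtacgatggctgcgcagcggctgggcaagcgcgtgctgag
Nipal4: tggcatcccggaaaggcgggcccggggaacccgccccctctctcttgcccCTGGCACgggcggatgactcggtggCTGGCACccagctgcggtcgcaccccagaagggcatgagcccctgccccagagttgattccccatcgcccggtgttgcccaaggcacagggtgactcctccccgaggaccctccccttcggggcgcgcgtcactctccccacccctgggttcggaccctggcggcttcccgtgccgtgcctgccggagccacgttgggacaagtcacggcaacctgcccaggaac

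The Nipal4 window holds CTGGCAC at 2 places, and among the 9 windows it was the only window with a MYRF motif, which 7.10% of 32851 mouse promoter windows of that length hold. The E-box CAGCTG, which can share bases with a MYRF motif, was in 3 of the 9 windows (Nipal4, Dixdc1 and Ypel2) and in 16.3% of all windows. The SOX letters ACAAAG or ACAATG, searched on both strands, were in 0 of the 9 and in 28.6% of all windows. The 9 windows had a median of 67.7% G and C and 25 CpG dinucleotides, against 52.7% and 7 over all windows. The set of all windows was not limited to genes tested here, so no trait of these genes is read from the differences. A match of letters is a description of the sequence and not a binding site.

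**Figure D1:**
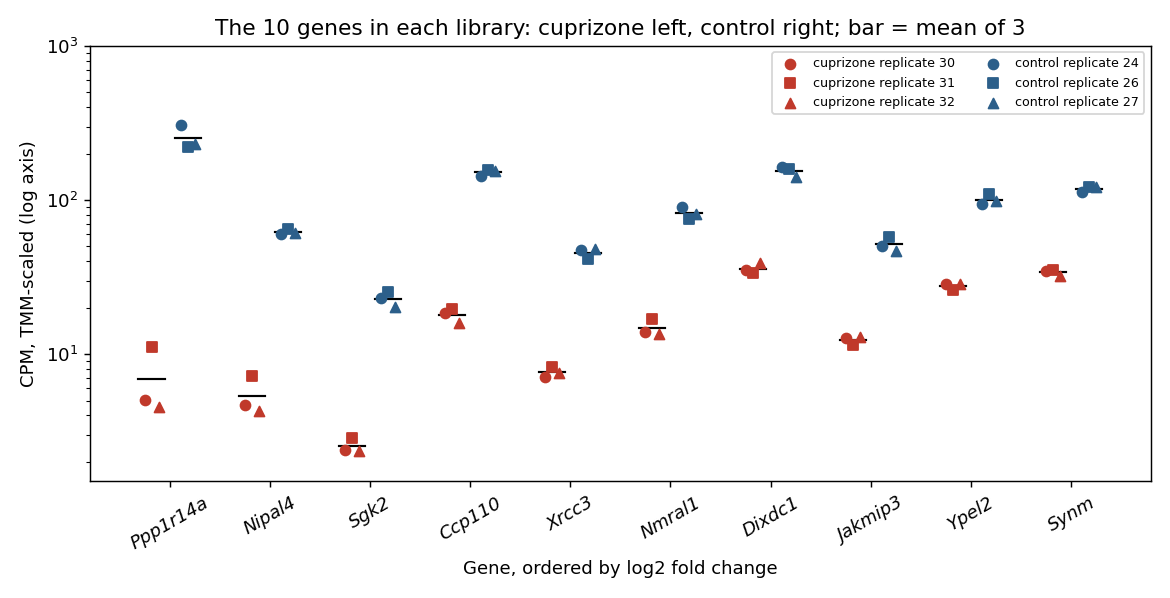
Level of each of the 10 genes in each library, in CPM on a log axis, with cuprizone libraries (red) left of control libraries (blue) and a bar at the mean of 3. In every gene the highest cuprizone library lies below the lowest control library, with Ppp1r14a farthest apart and Synm closest.

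Across the 10 genes the log2 fold change of cuprizone over control ran from -5.20 for Ppp1r14a to -1.80 for Synm, with a median of -2.53. The mean cuprizone level was 2.72% to 28.8% of the mean control level. Groups did not overlap for any of the 10, where 17.6% of all genes tested had every cuprizone library below every control library. All 10 were also past an adjusted p of 0.05 and lower with edgeR, as were 5.7% of genes tested, and since they were chosen on this contrast nothing is read from that count. The plot of each gene by library shows the gap between the groups.

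Ppp1r14a encodes an inhibitor of myosin phosphatase, known as CPI-17 from smooth muscle. It lies on chromosome 7 (ENSMUSG00000037166, 29289308 to 29293801, plus strand; build GRCm38, 1-based, as for all genes here). Its level was 5.004, 11.2 and 4.53 CPM in cuprizone replicates 30, 31 and 32 and 308, 222 and 232 CPM in control replicates 24, 26 and 27. Replicate 31 kept more than the other 2 cuprizone libraries, and the lowest control library still stood 19.9 times above it. The log2 fold change was -5.20 ± 0.40 (SE), from a mean of 6.90 ± 3.70 CPM in cuprizone and 254 ± 46.7 CPM in control (SD, n = 3 each). Of the 10 genes it had the highest level per kilobase of exon in control, at 186 CPM per kb.

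Of 16 listed genes of the PPP1R14 family and of myosin phosphatase 15 were tested, of which 0 fell and 1 rose with edgeR. DESeq2 put 1 lower and limma-voom 0, and 2 were lower at an unadjusted p under 0.05. The median log2 fold change of the 15 was -0.05, against 0.02 over all genes tested. The riser was Myl9, the regulatory light chain of myosin, at 27.2, 18.6 and 24.6 CPM in cuprizone and 14.6, 10.1 and 9.26 CPM in control (log2 fold change 1.05 ± 0.22, adjusted p = 0.0329). Its adjusted p was up to 0.138 without cuprizone replicate 30 or 32 or control replicate 26 or 27. The 5 endothelial and mural markers, none at 0 in any library, summed to 88.3, 54.9 and 104 CPM in cuprizone and 53.4, 47.2 and 42.5 CPM in control. Of these 5 markers 0 passed with edgeR or limma-voom and 2 were higher with DESeq2 (5.21% of all genes). At an unadjusted p under 0.05 there were 3 higher, without a share of all genes to set beside them. Among them Acta2, smooth muscle actin, was at 16.5, 2.65 and 23.8 CPM in cuprizone and 2.65, 0.907 and 2.39 CPM in control, high in the same 2 cuprizone libraries as Myl9, and the part of these markers in the rise of Myl9 was not tested. The paralogs Ppp1r14b and Ppp1r14c had log2 fold changes of 0.05 (adjusted p = 0.884) and 0.25 (adjusted p = 0.458), and Ppp1r14d had 1 count in all libraries together.

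Synm encodes synemin, a large intermediate filament protein that builds filaments together with vimentin or desmin. The gene is on chromosome 7 (ENSMUSG00000030554, 67730160 to 67759742, minus strand). Its level was 34.4, 35.2 and 32.3 CPM in cuprizone and 112, 121 and 121 CPM in control. The 3 cuprizone libraries were nearly level with each other, and the lowest control library was 3.19 times the highest of them, the narrowest gap of the 10 genes. The log2 fold change was -1.80 ± 0.10.

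Filament partners of synemin and the proteins that anchor them had 0 members lower and 1 higher of 10 tested with edgeR (0 lower with DESeq2, limma-voom or at an unadjusted p under 0.05, where 2, 1 and 3 were higher), with a median of 0.30. Nes, which encodes nestin, a filament protein of progenitor cells, rose to 47.0, 25.5 and 28.7 CPM in cuprizone, against 15.5, 6.80 and 8.62 CPM in control (1.71 ± 0.36, adjusted p = 0.0329). Its adjusted p was up to 0.141 without cuprizone replicate 30 or control replicate 26 or 27. Vim, the usual partner of synemin, is given by values alone, at 882, 668 and 505 CPM in cuprizone and 370, 253 and 129 CPM in control (adjusted p = 0.0765).

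Jakmip3 belongs to a family of coiled-coil proteins that bind Janus kinases and microtubules. Its locus on chromosome 7 (ENSMUSG00000056856, 138940730 to 139083976, plus strand) is the longest locus of the 10. Its level was 12.7, 11.5 and 12.9 CPM in cuprizone and 50.1, 57.8 and 46.6 CPM in control, with no overlap and little spread among the cuprizone libraries (log2 fold change -2.06 ± 0.13). Of its family and partners 0 of 5 fell or rose with edgeR, DESeq2 or limma-voom. At an unadjusted p under 0.05 there was 1, the paralog Jakmip1, with 59.5, 50.9 and 85.1 CPM in cuprizone and 39.7, 48.2 and 41.1 CPM in control (0.60 ± 0.20, adjusted p = 0.131), while Jakmip2 had a log2 fold change of -0.06 (adjusted p = 0.835).

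Ccp110 encodes the protein that caps the outer end of a centriole and holds back the growth of a primary cilium. It is found on chromosome 7 (ENSMUSG00000033904, 118712552 to 118737024, plus strand). Its level was 18.4, 19.7 and 16.0 CPM in cuprizone and 142, 156 and 155 CPM in control. The lowest control library was 7.23 times the highest cuprizone library (log2 fold change -3.07 ± 0.13).

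Of the 10 genes listed for the centriole cap, all tested, 1 fell, and the median of the list was 0.04. The gene that fell was Cep97, whose product holds CP110 at the centriole, with 15.4, 21.3 and 11.5 CPM in cuprizone and 42.5, 51.3 and 49.2 CPM in control. Every cuprizone library was below every control library, and the fall (-1.57 ± 0.23, adjusted p = 0.00824) stayed past the threshold in all 13 alternatives. Kif24, Mphosph9, Neurl4 and Ttbk2, which also act on the cap, stood at 0.42, 0.03, -0.18 and -0.38 on the log2 scale (adjusted p 0.31 to 0.954).

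Sgk2 is a kinase of the serum- and glucocorticoid-regulated family, relatives of AKT. The gene is located on chromosome 2 (ENSMUSG00000017868, 162987330 to 163014127, plus strand) and had the fewest reads of the 10, 50 to 67 counts in cuprizone libraries and 345 to 445 in control libraries. Its level was 2.39, 2.87 and 2.36 CPM in cuprizone and 23.0, 25.2 and 20.1 CPM in control, groups that lay far apart (log2 fold change -3.16 ± 0.16).

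Of 8 genes listed around the SGK kinases 2 fell and 0 rose with edgeR, DESeq2 or limma-voom, 0 having a higher level at an unadjusted p under 0.05, and the median was 0.03. Ndrg1, a substrate of SGK kinases whose loss harms peripheral myelin, fell to 169, 295 and 119 CPM in cuprizone, against 1354, 1126 and 1117 CPM in control (-2.62 ± 0.34, adjusted p = 0.00583), and was past the threshold in all 13 alternatives. Sgk3 fell to 11.8, 14.5 and 10.0 CPM in cuprizone, against 18.6, 20.6 and 20.9 CPM in control (-0.72 ± 0.16, adjusted p = 0.0394). Its adjusted p was past the threshold no longer, at up to 0.139, when cuprizone replicate 30 or 32 or any control library was left out. Sgk1 varied widely within both groups, with 90.6, 237 and 171 CPM in cuprizone and 83.3, 256 and 106 CPM in control (adjusted p = 0.878).

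Dixdc1 encodes a protein with a DIX domain, the module by which Dishevelled and axin assemble in Wnt signalling. It lies on chromosome 9 (ENSMUSG00000032064, 50662752 to 50739517, minus strand), with 12 annotated transcripts, which a count per gene does not tell apart. Its level was 35.3, 33.4 and 39.0 CPM in cuprizone and 163, 159 and 142 CPM in control, without overlap (log2 fold change -2.11 ± 0.12). The 12 genes listed with it, of the Wnt pathway and other partners, had 0 calls in either direction with edgeR or limma-voom. The 1 gene that was lower with DESeq2, and the 1 with an unadjusted p under 0.05, was Dvl2, a Dishevelled, with 43.4, 48.5 and 42.7 CPM in cuprizone and 60.7, 53.6 and 62.0 CPM in control (-0.39 ± 0.11, adjusted p = 0.0898). The median of the list was 0.05.

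**Figure D2:**
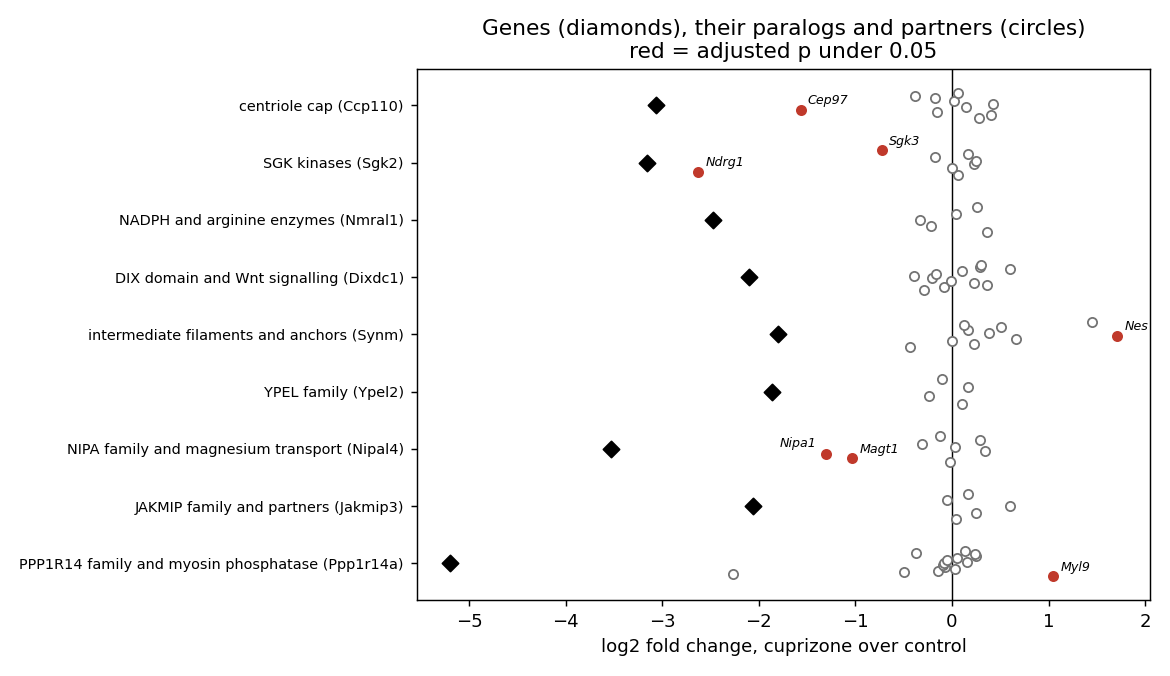
Log2 fold change of cuprizone over control for each of the 10 genes other than Xrcc3 (black diamonds) and for the paralogs and partners listed with it (circles, red where the adjusted p is under 0.05). Most circles lie near 0, and 5 genes (Cep97, Ndrg1, Sgk3, Nipa1, Magt1) are lower and 2 (Nes, Myl9) higher past the threshold.

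Nipal4, also called ichthyin, belongs to a family of magnesium transporters, and in humans its mutations cause a scaly skin disease. It lies on chromosome 11 (ENSMUSG00000020411, 46148155 to 46166508, minus strand). Its level was 4.64, 7.18 and 4.25 CPM in cuprizone and 60.2, 64.8 and 61.1 CPM in control. As with Ppp1r14a, replicate 31 kept the most among the cuprizone libraries, and the groups stayed far apart (log2 fold change -3.53 ± 0.21).

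Of 8 tested genes of the NIPA family and magnesium transport 2 fell and 0 rose with edgeR, DESeq2 or limma-voom, with 1 higher at an unadjusted p under 0.05 and a median of -0.07. Nipa1, a magnesium transporter linked to hereditary spastic paraplegia in humans, fell to 50.6, 50.6 and 35.0 CPM in cuprizone, against 106, 117 and 113 CPM in control (-1.30 ± 0.16, adjusted p = 0.00504), in all 13 alternatives. Magt1, a magnesium transporter that also serves protein glycosylation, fell to 34.0, 42.1 and 26.3 CPM in cuprizone, against 63.1, 73.6 and 72.9 CPM in control (-1.03 ± 0.18, adjusted p = 0.0168; up to 0.0721 without cuprizone replicate 30 or control replicate 26 or 27). The paralogs Nipal2, Nipal3 and Nipa2 stood at 0.03, -0.31 and 0.34 on the log2 scale (adjusted p 0.175 to 0.977), and Nipal1 had 2 counts in cuprizone replicate 30 and 0 in every other library.

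Nmral1 encodes an NADPH-binding protein described in human cells as a redox sensor. The gene is on chromosome 16 (ENSMUSG00000063445, 4710059 to 4719356, minus strand). Its level was 13.9, 17.0 and 13.4 CPM in cuprizone and 90.1, 75.4 and 81.7 CPM in control, with a wide gap between the groups (log2 fold change -2.48 ± 0.14). Of the 5 NADPH and arginine enzymes listed with it, 0 were past the threshold by edgeR, by DESeq2 or by limma-voom (2 at an unadjusted p under 0.05). Asl, argininosuccinate lyase, was at 19.4, 17.7 and 17.5 CPM in cuprizone and 15.2, 13.9 and 13.4 CPM in control (0.36 ± 0.12, adjusted p = 0.12).

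Xrcc3 encodes a protein that takes part in the repair of broken DNA. It is found on chromosome 12 (ENSMUSG00000021287, 111803192 to 111813873, minus strand). Its level was 7.12, 8.30 and 7.55 CPM in cuprizone and 47.4, 41.4 and 48.2 CPM in control, again without overlap (log2 fold change -2.58 ± 0.13). The lowest control library was 4.99 times the highest cuprizone library.

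Ypel2 lies on chromosome 11 (ENSMUSG00000018427, 86936425 to 86993707, minus strand). Its level was 28.3, 25.96 and 28.7 CPM in cuprizone and 94.5, 109 and 98.8 CPM in control, tight in both groups (log2 fold change -1.87 ± 0.11). The members of the YPEL family are close in sequence, and no source used here says how reads shared between them were counted. Of the paralogs Ypel1, Ypel3, Ypel4 and Ypel5, 0 were past the threshold by edgeR, by DESeq2 or by limma-voom (0 at an unadjusted p under 0.05). Ypel3 was at 99.6, 98.3 and 154 CPM in cuprizone and 149, 127 and 138 CPM in control, groups that overlap (-0.23 ± 0.20, adjusted p = 0.528); without cuprizone replicate 32 its log2 fold change was -0.48 with an adjusted p of 0.0441.

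Taking all 10 lists, 5 of 83 tested paralogs and partners (6.02%) fell and 2 (2.41%) rose, beside 5.7% and 1.87% of all genes tested, so the lists held about the same share of calls as any genes. DESeq2 put 7 lower and 3 higher (8.46% and 5.21% of all genes by that tool). Limma-voom put 5 lower and 2 higher (5.87% and 1.77% of all genes). The number lower was 3 without cuprizone replicate 30 or control replicate 27, and the number higher was 0 without cuprizone replicate 30 or control replicate 26 or 27 and 4 without cuprizone replicate 32. With a library left out the share of all genes lower was 2.87%, 5.44% and 5.75% without cuprizone replicates 30, 31 and 32 and 3.08%, 2.81% and 2.94% without control replicates 24, 26 and 27. The share higher was 0.543%, 1.63% and 2.77% without those cuprizone libraries and 0.931%, 0.432% and 0.385% without those control libraries. The median log2 fold change of the 83 was 0.03.

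Levels per kilobase used the merged exons of all annotated transcripts of a gene, so they compare different genes only roughly. By that measure the order of the 10 genes differed between the groups. In cuprizone libraries Ypel2 led with 5.70 ± 0.31 CPM per kb, followed by Ppp1r14a at 5.05 ± 2.71, Synm at 4.28 ± 0.19, Nmral1 at 3.80 ± 0.50 and Dixdc1 at 3.60 ± 0.28 CPM per kb (SD, n = 3), and neighbours among these 5 overlapped in their libraries. Xrcc3 at 2.78, Jakmip3 at 2.42, Ccp110 at 2.18 and Nipal4 at 1.56 CPM per kb came next, and Sgk2 was last at 0.744 CPM per kb; Jakmip3 overlapped Ccp110, and Ccp110 overlapped Nipal4. In control libraries Ppp1r14a stood far above the rest, at 186 ± 34.1 CPM per kb. Nmral1 (21.2) and Ypel2 (20.8) overlapped each other there, Ccp110, Nipal4, Xrcc3, Dixdc1 and Synm ran from 18.3 to 14.9 CPM per kb with each overlapping the next, and Jakmip3 (10.1) and Sgk2 (6.67) stood apart below.

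**Figure D3:**
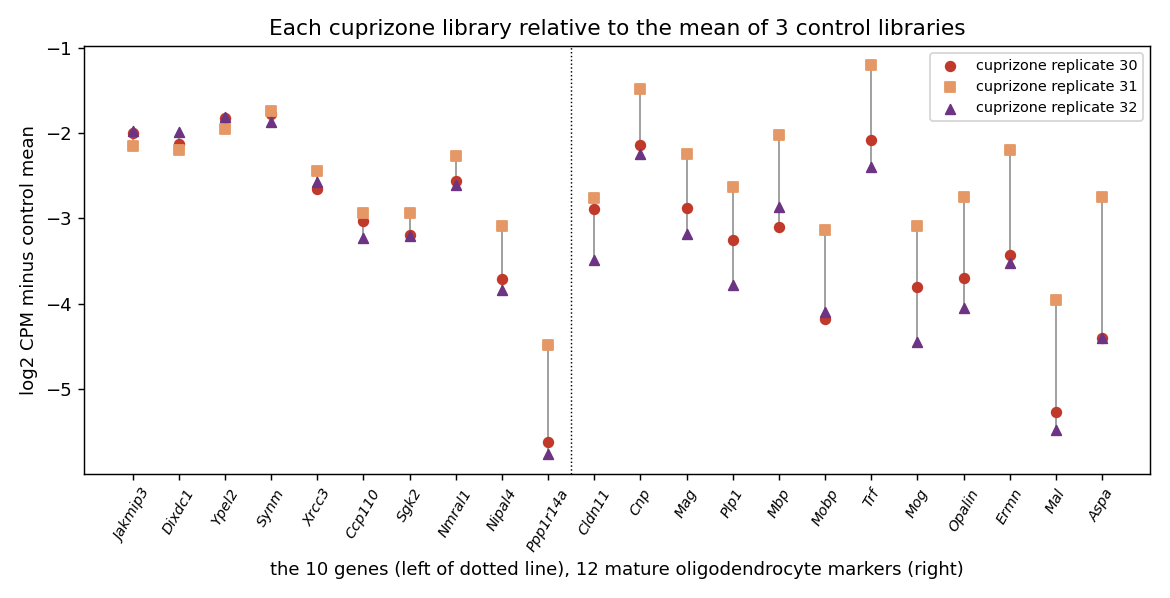
Level of each gene in each cuprizone library as log2 CPM minus the mean of the 3 control libraries, for the 10 genes (left of the dotted line) and 12 markers of mature oligodendrocytes (right). Replicate 31 is the highest library for all 12 markers and for 7 of the 10 genes, and the lowest for Jakmip3, Dixdc1 and Ypel2.

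The genes differed in how the cuprizone libraries lay among themselves. Replicate 31 was the highest cuprizone library for all 12 mature oligodendrocyte markers, by a median of 1.02 on the log2 scale over the mean of replicates 30 and 32. It was also the highest for Ppp1r14a (by 1.21), Nipal4 (0.68), Nmral1 (0.31), Sgk2 (0.26), Ccp110 (0.20), Xrcc3 (0.18) and Synm (0.08). Jakmip3, Dixdc1 and Ypel2 were lowest in replicate 31, by -0.16, -0.15 and -0.13, and highest in replicate 32. Counts in replicates 30, 31 and 32 were 282, 269 and 274 for Jakmip3 and 628, 607 and 608 for Ypel2. Those of Dixdc1 were 783, 782 and 826. Steps this small, and that of Synm, do not fix the order of the libraries. Neuron markers differed more, with replicate 31 off by a median of -0.70. Of these markers 6 of 7 were highest in replicate 32 and 6 of 7 lowest in replicate 31. Most endothelial and mural (4 of 5) and ependymal (3 of 4) markers were also highest in replicate 32, as were 8 of 8 microglia markers. Neuron markers summed to 2403, 1713 and 3270 CPM in cuprizone replicates 30, 31 and 32 and to 1442 to 2337 CPM in control, and the part of all these markers in the levels of Jakmip3, Dixdc1 and Ypel2 was not tested. Astrocyte markers lay as most of the 10 genes did, with 6 of 7 highest in replicate 31, by a median of 0.60. Replicate 32 was the lowest for 7 of 7 astrocyte markers, 6 of 6 progenitor markers, 10 of 12 mature markers and 6 of the 10 genes. Of the progenitor markers 2 were highest in replicate 31 and 4 in replicate 30. They summed to 982, 926 and 539 CPM in replicates 30, 31 and 32. The part of mature, progenitor and astrocyte markers in the levels of the 10 genes was not tested either. Each order rests on 3 libraries.

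The spread of log2 CPM over the cuprizone libraries was under 0.2 (SD) for 8 of the 10 genes and for 0 of the 12 mature markers. It had a median of 0.13 for the 10 genes, 0.60 for the mature markers and 0.20 for 9664 genes at 10 to 200 CPM. Ppp1r14a (0.70) and Nipal4 (0.40) were the other 2, each with a wider spread than that median of 0.20. The genes were picked for repeatable falls, so these spreads are a description. The mature markers kept 3.75% (Mal) to 28.5% (Trf) of their control level, a range close to that of the 10 genes.

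Genes with a profile over the 6 libraries like the mean profile of the 10 were sought by the root-mean-square difference in log2 CPM. The listed paralogs and partners, predicted genes, Riken clones, pseudogenes and identifiers without a symbol were left out. So were genes with a mean under 1 CPM over the 6 libraries. Nearest among the rest were Ddc at 0.15, Kcnk5 at 0.16, Micall1 at 0.20, Mag at 0.22 and Carns1 at 0.22. Ddc, the decarboxylase that makes dopamine and serotonin, was at 8.57, 10.5 and 8.26 CPM in cuprizone and 70.0, 56.6 and 49.8 CPM in control. Kcnk5, a potassium leak channel, was at 0.676, 0.770 and 0.519 CPM in cuprizone and 4.89, 4.48 and 4.14 CPM in control. Its cuprizone levels rest on 15, 18 and 11 counts, near the floor, so its likeness is less certain. Micall1, a protein of endosome recycling, was at 90.0, 101 and 63.3 CPM in cuprizone and 502, 482 and 552 CPM in control. Carns1, which joins amino acids into carnosine, was at 6.72, 4.70 and 4.81 CPM in cuprizone and 39.6, 41.7 and 34.1 CPM in control, and Mag, a myelin adhesion protein, was at 328, 506 and 264 CPM in cuprizone and 2505, 2676 and 2061 CPM in control. All 5 fell without overlap between the groups, which the choice by likeness fixes.

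The position of the 10 genes was then examined, since overlapping genes can share reads and no source used here says whether the counting used strand. They lie on chromosomes 2, 7, 9, 11, 12 and 16, with 4 on chromosome 7. Klc1, a kinesin light chain gene on the other strand, shares 12 exonic bases with Xrcc3 (0.436% of the exons of Xrcc3) and had 333, 312 and 401 CPM in cuprizone and 421, 433 and 461 CPM in control (-0.33 ± 0.15, adjusted p = 0.248). Ttc23, on the other strand, shares 84 exonic bases with Synm (1.06%) and had 9.87, 10.2 and 6.93 CPM in cuprizone and 6.48, 7.08 and 7.28 CPM in control (0.37 ± 0.19, adjusted p = 0.284). The predicted genes Gm45102 and Gm45613, on the strands opposite Synm and Jakmip3, share 426 and 179 exonic bases with them. Both are absent from the deposited counts, so neither could be tested.

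**Figure D4:**
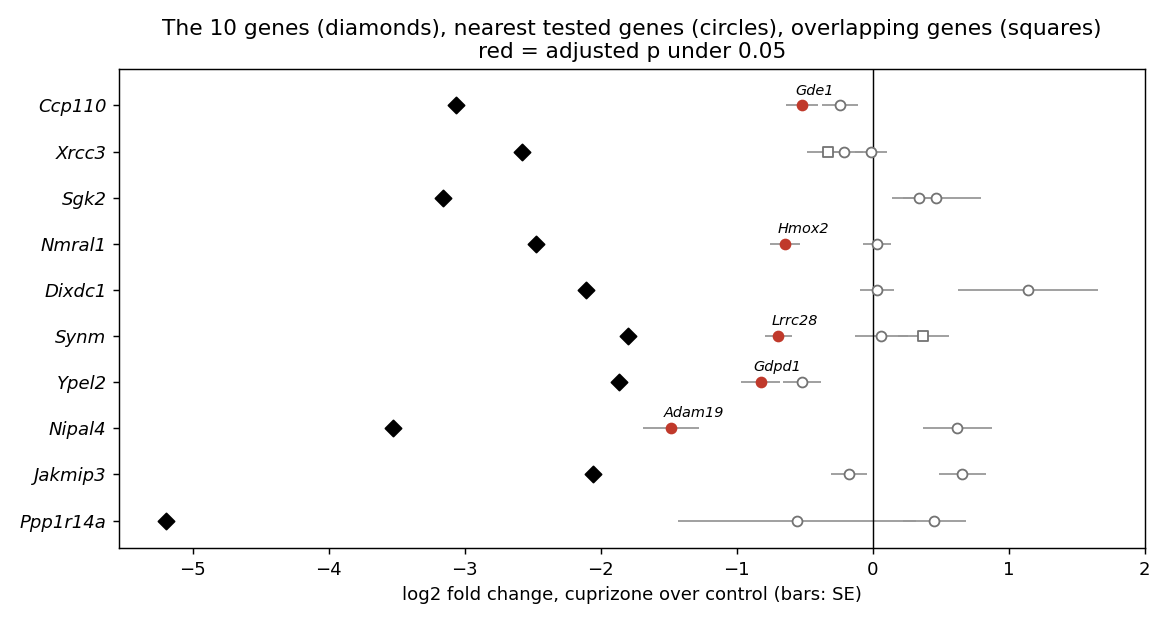
Log2 fold change of cuprizone over control for each of the 10 genes (diamonds), its nearest tested gene on either side (circles) and tested genes that overlap it (squares), with bars of 1 SE; red marks an adjusted p under 0.05. Gde1, Hmox2, Lrrc28, Gdpd1 and Adam19 are lower past the threshold, each less so than the gene it lies beside.

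Of the 22 tested neighbours 5 fell (22.7%, beside 5.7% of all genes tested) and 0 rose with edgeR. DESeq2 called 6 lower and 1 higher (8.46% and 5.21% of all genes by that tool). Limma-voom called 5 and 0 (5.87% and 1.77%). At an unadjusted p under 0.05, 6 were lower and 3 higher. The median log2 fold change was -0.09, against 0.02 over all genes. The number lower was 2 without cuprizone replicate 30 or control replicate 26 or 27 and 3 without control replicate 24.

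Adam19, a membrane metalloprotease gene that runs towards the 3' end of Nipal4 and ends 811 bases from it, fell to 12.6, 10.9 and 9.67 CPM in cuprizone, against 22.4, 35.5 and 34.8 CPM in control (-1.48 ± 0.21, adjusted p = 0.00769). Lrrc28, which encodes a leucine-rich repeat protein and lies 84891 bases from Synm, fell to 19.5, 20.95 and 18.9 CPM in cuprizone, against 32.4, 31.96 and 31.7 CPM in control (-0.69 ± 0.10, adjusted p = 0.00858). Both calls held in all 13 alternatives. Hmox2, the constitutive heme oxygenase, is transcribed away from Nmral1 at 7004 bases and fell to 73.8, 76.0 and 86.8 CPM in cuprizone, against 123, 126 and 121 CPM in control (-0.65 ± 0.11, adjusted p = 0.0157, up to 0.0756 without cuprizone replicate 30 or any control library).

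A pair of enzymes that split glycerophosphodiesters, Gde1 beside Ccp110 and Gdpd1 beside Ypel2, completed the 5. Gdpd1 fell to 24.6, 25.7 and 19.3 CPM in cuprizone, against 37.2, 44.8 and 41.4 CPM in control (-0.82 ± 0.14, adjusted p = 0.0165, up to 0.0703 without cuprizone replicate 30 or control replicate 26 or 27). Gde1 fell to 154, 159 and 146 CPM in cuprizone, against 203, 223 and 230 CPM in control (-0.52 ± 0.12, adjusted p = 0.0416). Its adjusted p was up to 0.186 with any 1 library other than cuprizone replicate 32 left out, with upper-quartile scaling or with no filter on low counts. Zfyve21, which starts 296 bases from the start of Xrcc3 and runs the other way, had 41.8, 47.0 and 33.6 CPM in cuprizone and 48.0, 48.3 and 45.5 CPM in control, with no call (-0.21 ± 0.14, adjusted p = 0.41).

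Mbp and Mog, the myelin genes set beside the 10, had log2 fold changes of -2.62 and -3.67 (adjusted p = 0.0104 and 0.00211), so that 3 of the 10 genes lay between them. That of Mbp was 0.0558 without cuprizone replicate 30. Olig1, whose promoter drives Cre, was at 474, 797 and 712 CPM in cuprizone and 1650, 1319 and 1346 CPM in control (-1.12 ± 0.24, adjusted p = 0.0334, up to 0.113 without cuprizone replicate 30 or any control library). Rpl22, the tagged gene, had a log2 fold change of 0.12 (adjusted p = 0.657).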

How the data were processed

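The deposited table holds raw counts, whole numbers per Ensembl mouse gene, for the 6 libraries. Per the labels' protocols, RNA was co-immunoprecipitated from snap-frozen corpus callosum and libraries were made with a Kapa kit. The submitters' processing notes name bcl2fastq 2.17 and build mm10. No source used here names the aligner, the counting program, the annotation or the use of strand.

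Columns were matched to samples by title. The labels do not say that replicates are separate animals, so p-values measure the spread between these samples. The test was that of edgeR 4.0.16 under R 4.3.3: filterByExpr (minimum count 10), TMM scaling (factors 1.05 to 1.11 in cuprizone, 0.915 to 0.941 in control), robust glmQLFit and glmQLFTest, 2-sided, Benjamini-Hochberg over 16569 genes, threshold 0.05. Standard errors are the fold change divided by the root of F. The steps were tested on simulated data. Symbols, positions and exonic lengths are from GENCODE M21 (37693 of 39017 identifiers matched), promoters from RefSeq. Alternatives used other scalings and filters, DESeq2 1.42.0, limma-voom (limma 3.58.1) and each library left out.

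The 10 genes and all lists were chosen with earlier results of these data known. Named are the 10, every paralog or partner past the threshold (else the smallest p of its list), overlapping genes and called neighbours, 5 genes of like profile (mean of at least 1 CPM), Mbp, Mog, Rpl22 and Olig1. Other named genes (paralogs, Kif24, Mphosph9, Neurl4, Ttbk2, Vim, Sgk1, Acta2, the microglia markers, Zfyve21, Mylk) were chosen after their values were seen. For Xrcc3, its list enters the counts over all lists and is not otherwise reported here.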

Additional observations from a re-analysis of the deposited data

How the results depend on the processing

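The log2 fold changes of the 10 genes kept their sign in all 13 alternatives and moved by less than the spread between replicates in each; that of Ppp1r14a ranged most widely, from -5.74 to -4.97. With a library left out, the number of all genes lower ran from 474 to 963 and higher from 65 to 464, paralogs and partners lower from 3 to 5 and higher from 0 to 4, and neighbours lower from 2 to 5. DESeq2 called 862 genes higher, against 310 with edgeR. Cep97, Ndrg1, Nipa1, Adam19, Lrrc28 and Mog stayed past the threshold in all 13 alternatives. A tally was kept for the single tested genes named by rule, without the 5 of like profile. There, 34 results fell short of the threshold under an alternative and 2 passed it newly, with 0 changes of sign. Genes chosen after their values were seen, such as Mylk, are outside this tally. The scaling alternatives moved the median of all genes to at most 0.08. No paired analysis was possible because the groups share no replicate number. Levels of Sgk2, Nipal4, Ppp1r14a and Xrcc3 in cuprizone rest on 50 to 261 counts a library, which limits their precision.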

Other observations

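Mylk, myosin light chain kinase, which acts on the same light chain that myosin phosphatase does, was at 1.58, 4.58 and 4.34 CPM in cuprizone replicates 30, 31 and 32 and at 21.9, 3.51 and 25.2 CPM in control replicates 24, 26 and 27. Control replicate 26 lay within the range of the cuprizone libraries, and the difference was not past the threshold (log2 fold change -2.27 ± 0.72, adjusted p = 0.115 with edgeR's quasi-likelihood test). DESeq2 and the fit without control replicate 26 called it lower, at -2.26 and -2.74 on the log2 scale.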
